A study of Mus musculus with 9 samples.

Results

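The Toll-like receptors are the membrane sensors through which microglia, the brain's own macrophages, recognise microbial molecules and nucleic acids. Their transcripts were examined in microglia sorted from the visual cortex of adolescent mice. The members were the 10 rows of the count table with the symbols Tlr1, Tlr2, Tlr3, Tlr4, Tlr5, Tlr6, Tlr7, Tlr8, Tlr9 and Tlr13, out of 45664 gene symbols. Of these, 9 reached the count level needed for testing (13067 genes in all), and Tlr8 did not.

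The mice were 9 male C57BL/6 animals from 3 litters, and each library held the microglia of a single mouse. The ethanol group (n = 4; ages 35, 35, 30 and 30 days for ethanol 1 to 4) was injected under the skin with ethanol at 1.8 g/kg, as a 20% v/v solution in saline, 2 times a day with 2 h between injections, from postnatal day 4 to postnatal day 9, which gave 3.6 g/kg daily. The saline group (n = 5; ages 36, 30, 35, 29 and 30 days for saline 1 to 5) was injected with the same volume of 0.9% sodium chloride on the same days. No genetic alteration was recorded in either group, and both were collected weeks after the last injection. Cells were gated as live, CD11b+ and CD45 low. Which litter each mouse came from is not stated in the labels. The comparison asks whether early postnatal ethanol left a difference in adolescent microglia.

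Each Toll-like receptor couples an outer domain of leucine-rich repeats to an intracellular TIR domain, which recruits the adaptors MyD88 or TRIF and so activates NF-kappaB and interferon regulatory factors. TLR1, TLR2, TLR4, TLR5 and TLR6 act mainly at the cell surface on microbial lipids and proteins, and TLR3, TLR7, TLR8, TLR9 and TLR13 act in endosomes on nucleic acids. In the brain, microglia are a main site of expression of these receptors, and TLR4 has been studied as a mediator of neuroinflammation after ethanol.

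Library totals ranged from 12816198 to 28859244 counts. The markers of the labelled cell type were high in both groups: the summed level of 7 microglial genes (P2ry12, Tmem119, Cx3cr1, Sall1, Csf1r, Gpr34 and Olfml3) was 47924 ± 3275 CPM in ethanol mice and 45928 ± 2656 CPM in saline mice (SD, n = 4 and 5), where CPM stands for counts scaled to a common library size (TMM, a trimmed mean of M values). Among the 9, 2 libraries stood apart from the rest. In ethanol 2, 686 of 8480 genes with a mean of at least 10 CPM lay more than 2-fold below the median of the other libraries, against 42 in saline 1 and 0 to 7 in the remaining libraries. In saline 1 the summed neuronal markers reached 4.04 CPM, against 75.7 to 289 CPM elsewhere. Averaged over the libraries, the neuronal sum was mostly 1 gene, Kif5a, at 125.9 CPM. None of the 8 receptors above 10 CPM was among the low genes of any library.

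The genes lie on 7 chromosomes of the mouse build GRCm38, by the GENCODE M21 annotation, and all 10 are protein coding. Tlr1 (chr5:64924679-64933563) and Tlr6 (chr5:64952031-64960097) are neighbours on the minus strand, 18467 bases apart with 0 annotated genes between them, and each has its whole coding sequence in 1 exon. Tlr7 (chrX:167304929-167330558) and Tlr8 (chrX:167242696-167264329) are likewise neighbours on the minus strand, 40599 bases apart with 0 annotated genes between them. Tlr13 lies elsewhere on the same chromosome (chrX:106143204-106160493, plus strand). Tlr2 (chr3:83836272-83841767) and Tlr3 (chr8:45395665-45411080) are on the minus strand. Tlr4 (chr4:66827584-66930284), Tlr5 (chr1:182954788-182976044) and Tlr9 (chr9:106222598-106226883) are on the plus strand.

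Sequence shared between members bears on how reads can be assigned to them. The coding sequences of Tlr1 and Tlr6, the interchangeable partners of TLR2, were identical at 78% of aligned bases, the highest of the 45 pairs of members by identity counted with gaps (73.3%), against 62.8% for Tlr7 and Tlr8. The longest identical run between Tlr1 and Tlr6 was 229 bases. The stretches below are shown because a read of 50 bases inside them cannot be assigned to 1 of the 2 genes unless it covers the differing base; they come from the GENCODE M21 transcripts, coding positions 1388 to 1547 of Tlr1 and 1427 to 1586 of Tlr6, counted from 1 at the start codon, and the capital letter marks the single base at which they differ.
Tlr1: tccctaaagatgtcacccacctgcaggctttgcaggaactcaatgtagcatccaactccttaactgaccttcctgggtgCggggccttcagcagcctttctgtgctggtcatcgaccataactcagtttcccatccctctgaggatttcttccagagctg
Tlr6: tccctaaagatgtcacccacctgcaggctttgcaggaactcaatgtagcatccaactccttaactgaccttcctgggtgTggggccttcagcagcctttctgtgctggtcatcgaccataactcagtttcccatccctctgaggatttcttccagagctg
Of all 50-base stretches, 13.6% of those in Tlr1 also occur in Tlr6 and 12.3% of those in Tlr6 also occur in Tlr1, so the values of both carry that uncertainty. Another 5.3% of the stretches in Tlr3 occur in Gm45542, an antisense gene that shares 381 exonic bases with it (7.32%), and whether counting used strand is not stated in the labels or processing notes.

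Tlr7 and Tlr13, endosomal sensors of single-stranded RNA and, in mice, of bacterial ribosomal RNA, were the highest of the family. Per kb of exon, Tlr7 averaged 116 ± 17.8 CPM and Tlr13 101 ± 12.9 CPM over the 9 libraries (SD). The receptors that followed were Tlr2 at 81.3 ± 7.03, Tlr4 at 43.8 ± 3.19 and Tlr3 at 27.2 ± 3.35 CPM per kb. Tlr1 had 23.0 ± 2.10, Tlr6 17.3 ± 2.07, Tlr5 10.5 ± 2.11 and Tlr9 1.78 ± 0.378 CPM per kb. Neighbours in this order were compared by the ratio within each library (exact two-sided sign-flip permutation test, Benjamini-Hochberg adjusted over 8 pairs; the smallest p possible was 0.00391). Tlr7 exceeded Tlr13 1.15-fold, in 5 of 9 libraries (exact permutation p = 0.141), so the order of the highest pair was not set beyond its spread. The other 7 steps passed the threshold. Tlr3 exceeded Tlr1 1.18-fold in 8 of 9 libraries (adjusted exact permutation p = 0.0223), and the other 6 steps held in 9 of 9 libraries (adjusted exact permutation p = 0.00521). Of the 50-base stretches, 15.4% of those in Tlr1 and 5.3% of those in Tlr3 occur in other genes. Their effect on the step from Tlr3 to Tlr1 was not tested. Per kb of coding sequence in place of exon, the step of Tlr2 over Tlr4 was 1.07-fold, in 7 of 9 libraries, and did not pass (adjusted exact permutation p = 0.214). The widest step was from Tlr5 to Tlr9, a sensor of unmethylated CpG DNA, at 5.89-fold. Tlr8 stood below Tlr9.

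**Figure D1:**
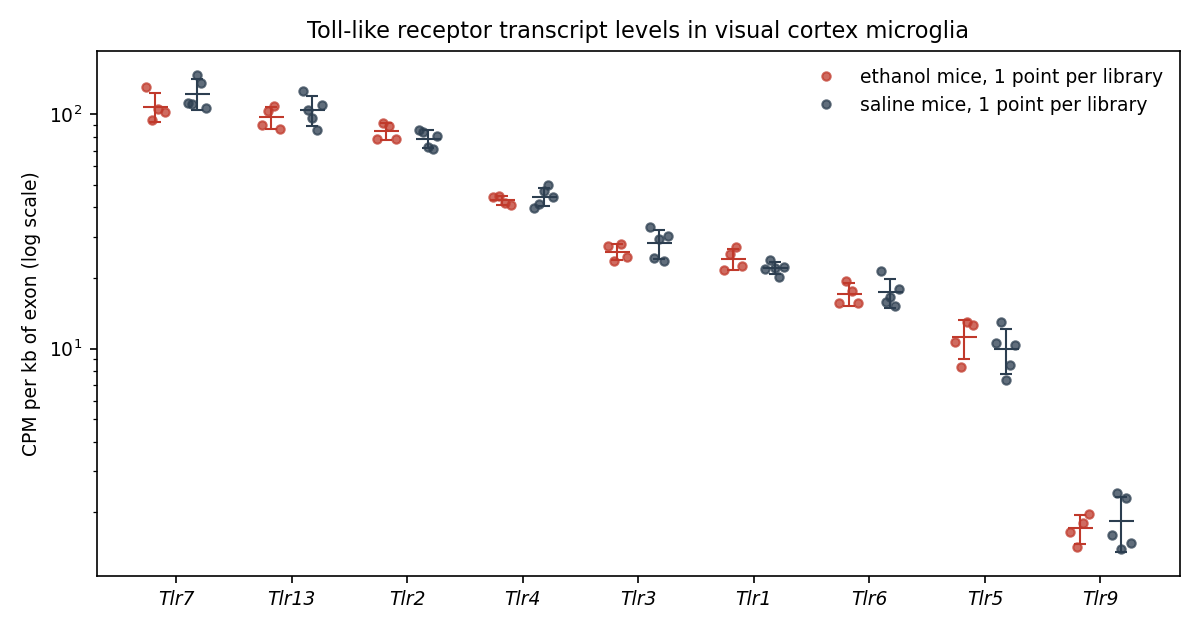
Level of each receptor, in CPM per kb of exon on a log scale, with 1 point per library, ethanol mice (n = 4) left of saline mice (n = 5); the long bar is the mean and the short bars 1 SD. The receptors run from Tlr7, at 116 CPM per kb over the 9 libraries, to Tlr9, at 1.78 CPM per kb, and the points of the groups overlap for each of the 9 receptors drawn; Tlr8, with 0 counts in 6 libraries, is not drawn.

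The spread over the libraries, which includes counting error, differed among the receptors, and these differences were not tested. Counts per library were 72 to 244 for Tlr9 and 3090 to 6666 for Tlr4. The coefficient of variation over the 9 libraries was 7.28% for Tlr4, 8.64% for Tlr2 and 9.14% for Tlr1, and between these and 15.4% for Tlr6, Tlr3, Tlr13 and Tlr7, with Tlr7 the highest of them. It was 20.1% for Tlr5 and 21.2% for Tlr9, beside a median of 16.1% over all genes tested and 10.2% over the 3963 genes with a mean of at least 50 CPM.

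Among the lipoprotein receptors, TLR2 forms pairs with TLR1 for triacylated and with TLR6 for diacylated lipopeptides. Tlr2 had 237, 275, 270 and 236 CPM in ethanol 1 to 4, against 258, 254, 218, 214 and 242 CPM in saline 1 to 5. The groups overlapped, with the lowest libraries, saline 3 and saline 4, in the saline group. Tlr1 had 72.1, 84.6, 90.7 and 75.7 CPM in ethanol 1 to 4, against 73.4, 79.8, 73.9, 67.6 and 74.9 CPM in saline 1 to 5. Ethanol 3 and ethanol 2 were the highest libraries for Tlr1, and ethanol 1 and 4 lay within the saline range. Tlr6 had 58.1, 72.8, 65.7 and 58.3 CPM in ethanol 1 to 4, against 79.6, 59.1, 62.1, 56.7 and 66.8 CPM in saline 1 to 5. Its highest and its lowest library were both saline.

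Tlr4 encodes the receptor for bacterial lipopolysaccharide, which it recognises together with MD-2. It had 245, 249, 232 and 228 CPM in ethanol 1 to 4, against 222, 230, 261, 277 and 246 CPM in saline 1 to 5, and the ethanol libraries lay inside the saline range. Tlr5, the receptor for flagellin, had 51.4, 40.1, 62.1 and 60.5 CPM in ethanol 1 to 4, against 50.6, 62.4, 35.1, 40.6 and 49.6 CPM in saline 1 to 5. Each group held libraries near 40 CPM and near 62 CPM, and the ethanol libraries lay inside the saline range.

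Of the endosomal receptors, Tlr3, a sensor of double-stranded RNA that signals through TRIF, had 143, 123, 146 and 128 CPM in ethanol 1 to 4, against 172.5, 127, 153, 123 and 157 CPM in saline 1 to 5. Saline 1, saline 5 and saline 3 were the highest, and the rest of the groups overlapped. Tlr7 had 532, 386, 428 and 416 CPM in ethanol 1 to 4, against 455, 452, 603, 557 and 436 CPM in saline 1 to 5. Ethanol 2, 4 and 3 were the lowest libraries, while ethanol 1 was above 3 of the 5 saline libraries. Tlr13 had 389, 443, 466 and 373 CPM in ethanol 1 to 4, against 542, 449, 413, 368 and 470 CPM in saline 1 to 5, with the ethanol libraries inside the saline range. Tlr9 had 5.72, 4.93, 6.25 and 6.87 CPM in ethanol 1 to 4, against 5.55, 8.41, 4.86, 8.02 and 5.17 CPM in saline 1 to 5. The ethanol libraries again lay inside the saline range.

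Tlr8, which in humans senses single-stranded RNA, was at the limit of detection. It had 0 counts in each of the 4 ethanol libraries, against 0, 10, 2, 4 and 0 counts in saline 1 to 5. The ethanol libraries together held 0 of 74146404 counts, or 0 CPM (95% Poisson interval 0 to 0.04975), where 3 counts would be 0.0405 CPM. The saline libraries held 16 of 106427654 counts, or 0.150 CPM (95% Poisson interval 0.0859 to 0.244). The intervals cover counting error only. The mean level per library did not differ past the threshold between the groups (0 CPM in ethanol mice and 0.133 CPM in saline mice; exact two-sided permutation test over all splits of the 9 mice, p = 0.167). Saline 2, with 10 of the 16 counts, was also the deepest library.

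No Toll-like receptor differed between ethanol and saline mice past the threshold. In edgeR's quasi-likelihood test, 0 of the 9 receptors tested had an adjusted p under 0.05, beside 0% of all 13067 genes, and 0 of the 9 had an unadjusted p under 0.05, beside 386 genes in all. DESeq2 and limma-voom also called 0 genes, with 435 and 504 under the unadjusted threshold. The CPM of the groups did not separate for any of the 9, beside 1.29% of all genes whose groups did not overlap in either direction. In bulk libraries, fewer cells of a type and less RNA per cell cannot be told apart, so a level here refers to the whole sorted population.

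The fold changes were small in either direction: 3 receptors lay above 0 and 6 below. Their median log2 fold change was -0.05 and their median size 0.11, beside 6505 genes above and 6562 below and a median size of 0.12 over all genes, whose median was -0.00068. Tlr1 averaged 80.8 ± 8.47 CPM in ethanol mice and 73.9 ± 4.34 CPM in saline mice (log2 fold change 0.13, SE 0.089). Tlr2 averaged 254 ± 21.1 CPM in ethanol mice and 237 ± 20.0 CPM in saline mice (0.10, SE 0.086), and Tlr6 63.7 ± 6.99 against 64.8 ± 9.06 CPM (-0.02, SE 0.11). Each of these 3 differences between means was smaller than 1 SD of the ethanol libraries. Against 1 SD of the saline libraries, the difference was larger for Tlr1 and smaller for Tlr2 and Tlr6.

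Tlr4 averaged 239 ± 10.2 CPM in ethanol mice and 247 ± 22.6 CPM in saline mice, with a log2 fold change of -0.05 (SE 0.081). Its 95% interval ran from -0.23 to 0.13, or from 0.854-fold to 1.09-fold, the narrowest of the 9 receptors. Tlr5 averaged 53.5 ± 10.1 CPM in ethanol mice and 47.7 ± 10.4 CPM in saline mice (0.17, SE 0.17, interval -0.22 to 0.55).

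Among the endosomal receptors, Tlr7 had the lowest fold change of the 9: it averaged 440.1 ± 63.5 CPM in ethanol mice and 500.4 ± 74.5 CPM in saline mice (-0.19, SE 0.12, interval -0.45 to 0.08). Tlr3 averaged 135 ± 11.1 CPM in ethanol mice and 146 ± 21.1 CPM in saline mice (-0.12, SE 0.11), Tlr13 418 ± 43.8 against 448 ± 65.1 CPM (-0.10, SE 0.11) and Tlr9 5.94 ± 0.821 against 6.40 ± 1.68 CPM (-0.11, SE 0.21). The adjusted p-values of the 9 receptors in edgeR ran from 0.963 to 0.986. The 95% intervals of all 9 fold changes lay within 1.5-fold of no change, as did those of 59.4% of all genes tested. A p above the threshold does not show equal levels; the intervals bound the difference. Summed over the 10 receptors, ethanol 1 to 4 had 1733, 1679, 1765 and 1582 CPM and saline 1 to 5 had 1857, 1721, 1824, 1711 and 1749 CPM, means of 1690 ± 80.4 and 1772 ± 64.6 CPM (SD).

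Without ethanol 2 and saline 1 together, 0 receptors were called, and the log2 fold changes of the 9 ran from -0.16 for Tlr7 to 0.30 for Tlr5. The libraries whose names end in 1-6-16 (ethanol 3 and 4, saline 2 and 5) and those ending in 1-5-16 (ethanol 1 and 2, saline 3 and 4) each held both treatments, while saline 1 ends in 1-X-16 and stands alone; the labels do not say what this last part of the name records. Within 1-6-16 the log2 fold changes for ethanol ran from -0.13 (Tlr13) to 0.13 (Tlr5), and within 1-5-16 from -0.34 (Tlr7) to 0.27 (Tlr5), with 0 receptors called in either. The sign differed between the 2 sets of libraries for Tlr6 (-0.02 and 0.14) and Tlr13 (-0.13 and 0.09).

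**Figure D2:**
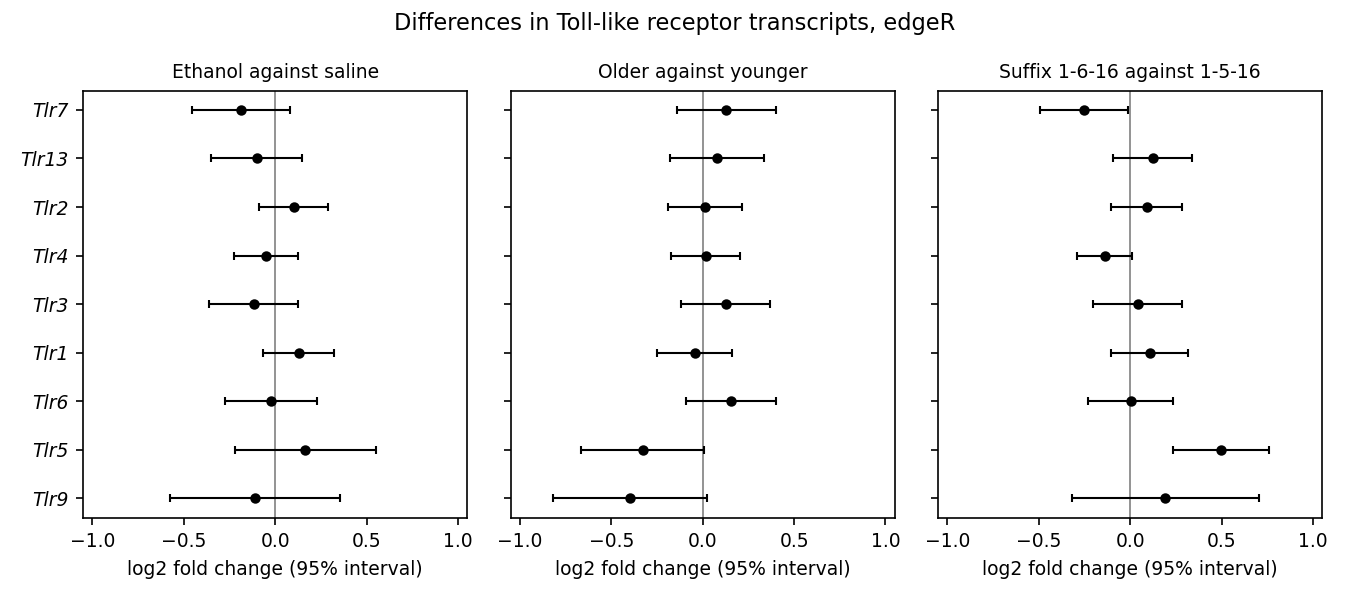
Log2 fold change of each receptor tested (points) with its 95% interval (bars), from edgeR, for ethanol against saline mice, older against younger mice, and libraries ending in 1-6-16 against those ending in 1-5-16. For ethanol the 9 intervals include 0; for the last part of the library name those of Tlr5 (0.50) and Tlr7 (-0.25) do not.

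The ages fell into an older cohort of 35 and 36 days (ethanol 1 and 2, saline 1 and 3) and a younger one of 29 and 30 days (ethanol 3 and 4, saline 2, 4 and 5). Tlr5 averaged 44.3 ± 8.00 CPM in older mice and 55.0 ± 9.62 CPM in younger mice (SD, n = 4 and 5), and Tlr9 5.27 ± 0.431 CPM in older mice and 6.94 ± 1.32 CPM in younger mice. With treatment in the model, their log2 fold changes were -0.33 (SE 0.15, interval -0.67 to 0.01) and -0.40 (SE 0.19, interval -0.82 to 0.03), with an adjusted p of 0.973 for both in edgeR. None of the 9 receptors passed the threshold for age, beside 0% of all genes (372 genes under the unadjusted threshold, 0 called by DESeq2 or limma-voom), and none had groups that did not overlap, beside 1.24% of all genes. The other 7 fold changes for age lay between -0.04 for Tlr1 and 0.16 for Tlr6.

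The ethanol difference was not shown to differ between the cohorts for any receptor. The interaction terms ran from -0.30 (Tlr3) to 0.16 (Tlr9) on the log2 scale, with adjusted p-values in edgeR of 0.972 to 0.999, and 0 of the 9 were called, beside 0% of all genes and 423 genes under the unadjusted threshold. The count over all genes depended on ethanol 1. Without that library the older ethanol mice were ethanol 2 alone, in which 686 of 8480 genes lay more than 2-fold low. The interaction without ethanol 1 therefore rests on a single library and cannot show a difference between the cohorts.

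After the values had been seen, the libraries ending in 1-6-16 were compared with those ending in 1-5-16, with treatment in the model. Tlr5 had 62.1 and 60.5 CPM in ethanol 3 and 4 and 62.4 and 49.6 CPM in saline 2 and 5, all ending in 1-6-16, against 51.4 and 40.1 CPM in ethanol 1 and 2 and 35.1 and 40.6 CPM in saline 3 and 4, ending in 1-5-16. Within each treatment the 1-6-16 libraries were the higher ones; across treatments saline 5 lay below ethanol 1. The means were 58.6 ± 6.08 and 41.8 ± 6.85 CPM (SD, n = 4 each), with a log2 fold change of 0.50 (SE 0.12, interval 0.23 to 0.76). In edgeR the adjusted p was 0.516, so the difference did not pass over all genes; unadjusted it was 0.0019.

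Tlr7 averaged 433 ± 15.3 CPM in libraries ending in 1-6-16 and 519 ± 93.7 CPM in those ending in 1-5-16 (log2 fold change -0.25, SE 0.11, adjusted p = 0.651 in edgeR), and Tlr4 234 ± 8.42 against 258 ± 14.2 CPM (-0.14, SE 0.067, adjusted p = 0.676). Of the 9 receptors, 0 were called, beside 0% of 13001 genes; 2, Tlr5 and Tlr7, were under the unadjusted threshold, beside 994 genes. None had libraries that did not overlap, beside 5.36% of all genes. DESeq2 called 50 genes and limma-voom 20, none of them a receptor. The call for Tlr7 depended on ethanol 2, without which its adjusted p in edgeR was 0.0259 and its log2 fold change -0.36. Tlr5 passed with no filter on low counts (adjusted p = 0.029 in edgeR). All 1-6-16 libraries came from younger mice and 3 of the 4 1-5-16 libraries from older mice. With age cohort in the model the log2 fold change of Tlr5 for the library name was 0.42, and with the library name in the model its fold change for age was -0.11. For Tlr9 these fits gave -0.27 for the library name and -0.65 for age. Only saline 4, a younger mouse with a 1-5-16 name, separates name from age. These values therefore rest on saline 4, and name and age cannot be told apart.

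**Figure D3:**
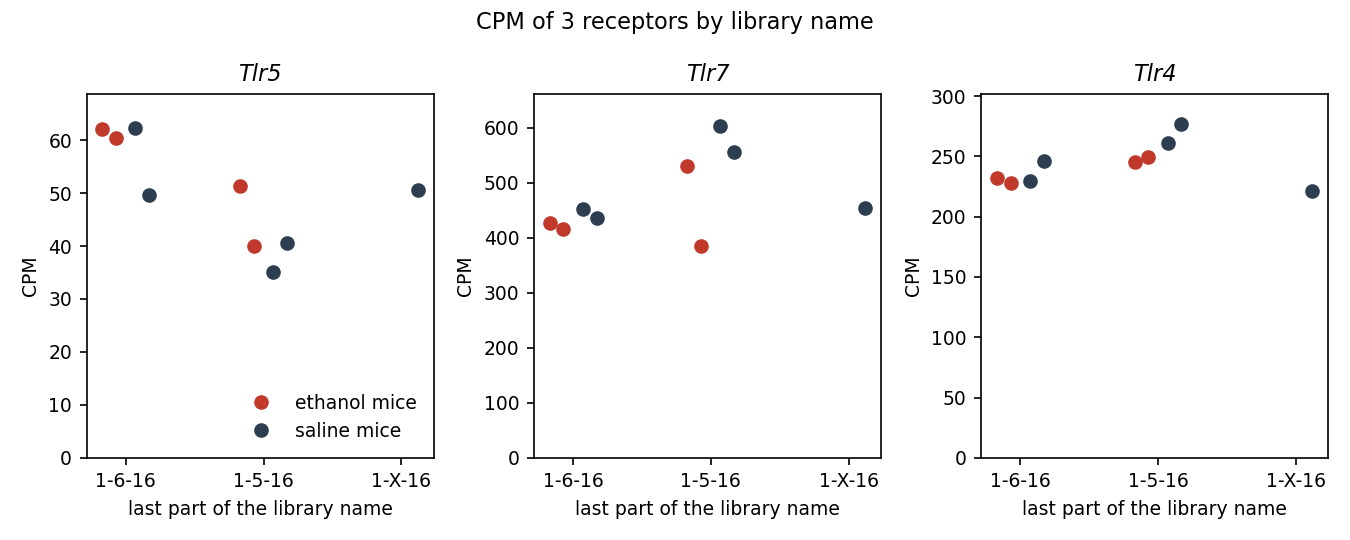
CPM of Tlr5, Tlr7 and Tlr4 by the last part of the library name, 1 point per library, ethanol mice left of saline mice in each set. For Tlr5 the 1-6-16 libraries span 49.6 to 62.4 CPM and the 1-5-16 libraries 35.1 to 51.4 CPM, so that the sets overlap; Tlr7 spreads widest in 1-5-16, from 386 CPM in ethanol 2 to 603 CPM in saline 3.

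Across the 9 libraries, 3 pairs were compared. Tlr2 was set against Tlr1 and against Tlr6, which encode its alternative partners. Tlr1 and Tlr6 were compared as neighbouring genes that share sequence. Tlr1 and Tlr2 varied together, with Pearson's r = 0.824 on log2 CPM (exact permutation p = 0.00603, adjusted 0.0181) and Spearman's rho = 0.7 (exact permutation p = 0.0433, adjusted 0.0649). Without ethanol 3 and ethanol 2, the libraries farthest from the median of Tlr1, r was 0.665 and no longer passed the threshold over the remaining 7 (exact permutation p = 0.0986), while without either one alone it was 0.816 and 0.783 and passed (adjusted exact permutation p = 0.0423 and 0.0441). Without saline 4 alone, r was 0.75 and did not pass, with an adjusted exact permutation p of 0.0926. For Tlr2 and Tlr6, r was 0.645 (adjusted exact permutation p = 0.0929) and rho 0.75 (0.0649), with r = 0.439 without ethanol 2 and saline 4. For Tlr1 and Tlr6, r was 0.33 and rho 0.433 (adjusted exact permutation p = 0.387 and 0.25), with r = 0.105 without ethanol 3 and ethanol 2. The paired values share library and depth, and the sets of libraries by name or treatment, of 5 or fewer, were too small for an r of their own. Tlr7 and Tlr8 were not compared, since Tlr8 had 0 counts in 6 libraries.

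The genes whose pattern over the 9 libraries was most like that of Tlr7, the highest receptor, were Lifr, Eif2ak3 and Cyth1. Their mean absolute differences from it in gene-centred log2 CPM were 0.044, 0.059 and 0.063, against a median of 0.25 over 12713 genes compared. Because these genes were picked as the closest, lying below the median follows from the choice and is no test of likeness. The closest receptor was Tlr4, at 0.13, which ranked 415 among the genes compared. Lifr encodes a receptor for the cytokine LIF, Eif2ak3 the stress-sensing kinase PERK and Cyth1 an exchange factor for ARF proteins.

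Other immune cells also express Toll-like receptors, and most of the markers listed for them averaged under 1 CPM. Mrc1, at 57.45 CPM, and Cd79b, at 51.53 CPM, were the highest of the others. Of 8 monocyte and neutrophil markers, 2 (S100a8 and S100a9) were at 0 in all libraries and 7 were under 1 CPM; the sum was 4.84 to 16.0 CPM in ethanol mice and 5.64 to 8.25 CPM in saline mice, mostly Ccr2. Of 7 B and T cell markers, Cd3e was at 0 and 6 were under 1 CPM; the sum was 46.5 to 68.9 CPM in ethanol mice and 44.8 to 53.2 CPM in saline mice, nearly all Cd79b. Of 7 dendritic cell markers, Klk1 was at 0 and 5 were under 1 CPM, with sums of 19.4 to 22.8 CPM in ethanol mice and 10.3 to 20.8 CPM in saline mice, mostly Zbtb46. The 7 markers of border macrophages, which like microglia carry many of these receptors, summed to 39.4 to 92.0 CPM in ethanol mice and 48.4 to 82.0 CPM in saline mice, mostly Mrc1, and 5 were under 1 CPM. Over the 9 marker lists, microglia included, the difference between ethanol and saline mice had adjusted exact permutation p-values of 0.488 to 0.81. Their part in the receptor levels was not tested.

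The rest of the pathway was examined through 8 lists of 60 genes, of which 55 were tested. Of these 0 were called for ethanol, with 24 above 0 and 31 below, beside 0% of all 13067 genes called. Under the unadjusted threshold were 4 of the 55 (Tirap, Irak2, Il6 and Nlrp3), beside 2.95% of all genes. Tlr12 and Tlr11, which in mice bind the protozoan protein profilin, had very different levels: Tlr12 averaged 92.6 ± 18.4 CPM in ethanol mice and 96.3 ± 12.8 CPM in saline mice, and Tlr11 0.556 ± 0.417 against 0.991 ± 0.148 CPM (log2 fold change -0.89, SE 0.52). Of the co-receptors and partners, 5 were tested, 2 above and 3 below 0 with a median of -0.08; Ly86, the partner of the TLR4-related protein CD180, averaged 933 ± 65.7 CPM in ethanol mice and 853 ± 99.1 CPM in saline mice (0.13, SE 0.092).

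Of the genes of receptor folding, trafficking and cleavage, 7 were tested, 6 above and 1 below 0 with a median of 0.04. Unc93b1, which escorts the nucleic acid receptors to endosomes, averaged 2307 ± 218 CPM in ethanol mice and 2220 ± 93.5 CPM in saline mice (0.06, SE 0.073), and Ctss, the protease cathepsin S that cleaves them there, 5970 ± 451 against 5823 ± 381 CPM (0.04, SE 0.073). Of 6 adaptors, 4 lay above and 2 below 0, with a median of 0.02. Tirap, which bridges TLR2 and TLR4 to MyD88, averaged 46.4 ± 2.48 CPM in ethanol mice and 40.5 ± 2.23 CPM in saline mice (0.19, SE 0.081, adjusted p = 0.963 in edgeR). Pik3ap1, an adaptor to the PI3-kinase pathway, had a log2 fold change of -0.01 (SE 0.074).

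Of the kinases, ubiquitin ligases and their partners, 14 of 15 were tested, 4 above and 10 below 0 with a median of -0.06. Irak2, a kinase of the MyD88 complex, averaged 197 ± 4.78 CPM in ethanol mice and 170.5 ± 20.0 CPM in saline mice (0.21, SE 0.089, adjusted p = 0.963 in edgeR). Of 6 transcription factors, 4 lay above and 2 below 0 (median 0.02), with log2 fold changes of 0.01 (SE 0.083) for Irf8 and 0.09 (SE 0.086) for Nfkb1. Of 7 inhibitors, 2 lay above and 5 below 0 (median -0.06): Nfkbia, which holds NF-kappaB in the cytoplasm, averaged 139.5 ± 38.5 CPM in ethanol mice and 105 ± 25.9 CPM in saline mice (0.41, SE 0.21), and Rnf216, a ubiquitin ligase that acts on some of the receptors, 142 ± 24.8 against 162 ± 19.3 CPM (-0.19, SE 0.13).

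Of 11 genes that the receptors induce, 8 were tested, 2 above and 6 below 0, with a median of -0.45. Il6, which encodes the cytokine interleukin 6, averaged 5.10 ± 1.18 CPM in ethanol mice and 7.38 ± 0.828 CPM in saline mice (log2 fold change -0.52, SE 0.19, unadjusted p = 0.0193 and adjusted p = 0.963 in edgeR). Nlrp3, the inflammasome sensor, which falls outside the rule and was named after its values were seen, averaged 41.2 ± 14.8 CPM in ethanol mice and 62.6 ± 12.1 CPM in saline mice (-0.61, SE 0.24, adjusted p = 0.963 in edgeR). Icam1, an adhesion molecule, had a log2 fold change of 0.13 (SE 0.088). Il12b, Ifnb1 and Ptgs2 had too few counts to test.

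**Figure D4:**
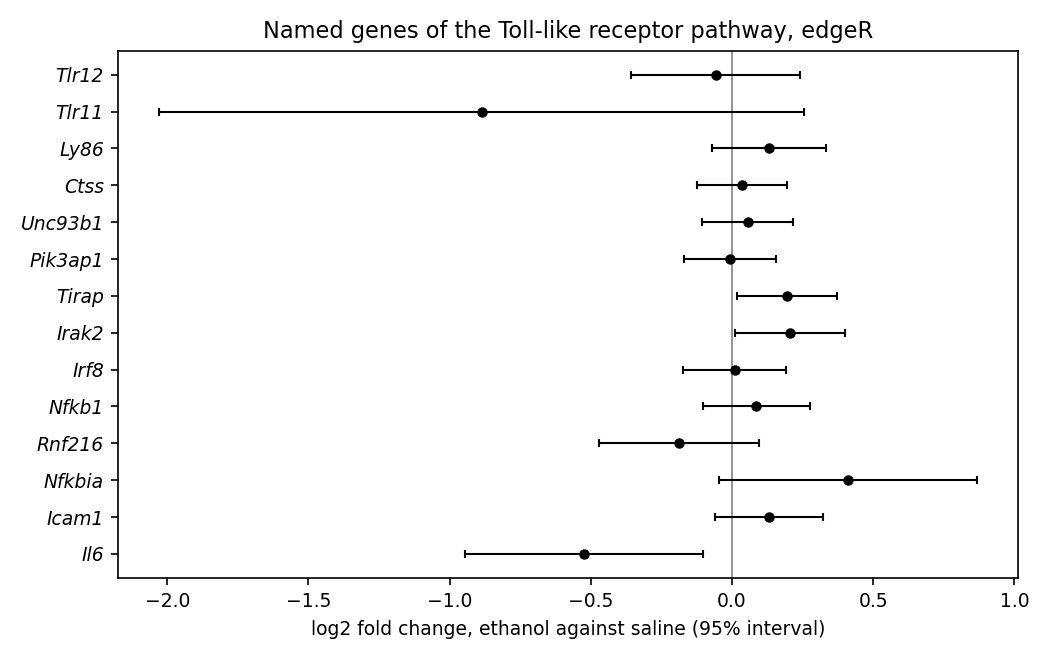
Log2 fold change for ethanol against saline mice (points) with the 95% interval (bars), from edgeR, for the 14 genes named from the pathway lists. The intervals of Tirap (0.19), Irak2 (0.21) and Il6 (-0.52) exclude 0 before adjustment, and 0 of the 14 had an adjusted p under 0.05.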

How the data were processed

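The values are unnormalized read counts by gene symbol, deposited by the authors as 1 table for 9 libraries. Per the submitters' processing notes it involved Trimmomatic 0.32, STAR 2.4.2a, HTSeq 0.6.1 and the build GRCm38.p4; no label or note records the settings, the annotation or whether strand was used, so the values of genes that share sequence or overlap an antisense gene are uncertain.

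Genes were filtered with edgeR 4.0.16 in R 4.3.3 (filterByExpr, minimum count 10, minimum total 15), which left 13067, and libraries were scaled by TMM. Ethanol was tested against saline with the quasi-likelihood test and no covariate, age cohort with treatment as a covariate, and their interaction, with Benjamini-Hochberg adjustment over all genes tested and a threshold of 0.05. Errors are SD or SE, and intervals 95%. Single values were compared by exact permutation (scipy 1.17.1). The procedure was tested on simulated data. Lengths are unions of exons.

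The receptors and lists were chosen with earlier results of these data known. Named were all receptors, from each pathway list the gene with the highest mean CPM and that with the smallest ethanol p, any gene past the threshold, and the 3 genes most like the highest receptor. Alternatives were DESeq2 1.42.0, limma-voom (limma 3.58.1), RLE size factors, other filters, covariates and subsets, other lengths, plain totals and each library left out. The comparison by library name, and ethanol within it, were added after the data were seen. Nothing says whether mice shared a litter across groups; p-values measure the spread between these mice. Some marker genes are not reported here, and the marker sums leave them out.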

Additional observations from a re-analysis of the deposited data

How the results depend on the processing

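Ethanol against saline gave 0 genes and 0 receptors called under each of 22 alternatives, and 231 of 242 values kept their direction and side of the threshold. The receptors whose log2 fold change turned sign were Tlr13 (0.091 within 1-5-16), Tlr3 (0.0084 in younger mice), Tlr4 (0.035 in older mice), Tlr9 (0.030 in older mice) and Tlr6 (0.060 with the library name as a covariate, 0.14 within 1-5-16, 0.024 in younger mice); with single libraries left out Tlr6 ran from -0.097 to 0.060 and Tlr9 from -0.19 to 0.012. The cause was not tested for these or the values below. For the interaction, 53 genes were called with no filter, where Tlr7 was 0.0014, and 0 to 848 with single libraries left out, where Tlr1 ran from -0.20 to 0.067, Tlr13 from -0.35 to 0.042, Tlr2 from -0.10 to 0.15, Tlr5 from -0.42 to 0.11, Tlr6 from -0.31 to 0.051 and Tlr7 from -0.23 to 0.20. For age, 97 genes were called with no filter and 3 without saline 1 and ethanol 2, 0 of them receptors. Sign changes for age were Tlr1 (0.12), Tlr4 (-0.10) and Tlr7 (-0.0089) with the library name as a covariate; Tlr2 in limma-voom (-0.051); Tlr13 (-0.082), Tlr2 (-0.11) and Tlr6 (-0.030) without saline 1 and ethanol 2. With single libraries left out, age values ran from -0.082 to 0.019 for Tlr1, -0.030 to 0.16 for Tlr13, -0.039 to 0.065 for Tlr2 and -0.017 to 0.084 for Tlr4. Same-numbered libraries of the groups did not deviate together (correlations -0.055, 0.000304, -0.101 and -0.0792), so no pairing by replicate number showed in these values. The correlations cannot settle whether the mice were paired, since a pairing may leave little trace in expression. With a replicate block 0 genes were called for ethanol (240 under the unadjusted threshold, against 386 without it) and 0 for age (801 against 372), with Tlr13 at -0.10 and Tlr2 at -0.094 for age. For the library name, 261 genes and 1 receptor, Tlr5, were called with no filter, 50 genes by DESeq2, 20 by limma-voom, and 0 to 55 genes and 0 to 1 receptors with single libraries left out; Tlr6 was -0.0052 with no filter, Tlr9 -0.27 with age as a covariate, and Tlr3 ran from -0.025 to 0.11 and Tlr6 from -0.062 to 0.088. The order of levels was the same under each length and scaling, with 7 of 8 steps past the threshold in 11 of 12 alternatives and 6 per coding length, where Tlr2 over Tlr4 did not pass (1.07-fold); Tlr4 had 97.2 CPM per kb of coding sequence, against 43.8 per kb of exon. The correlation of Tlr1 with Tlr2 ran from 0.75 to 0.907 with single libraries left out. Monocyte and neutrophil markers differed by -0.064 on the mean log2 scale and by -1.11 to 2.61 CPM with single libraries left out, and neuronal markers by -17.4 to 53.8 CPM. At these depths the 0 counts of Tlr8 in the ethanol libraries allow up to 0.0405 CPM.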
